A study of Mus musculus with 7 samples.

Results

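The MHC class I and immunoproteasome genes are 10 genes that were chosen by name: the class I heavy chains H2-K1 and H2-D1, the light chain B2m, the peptide loading genes Tap1, Tap2 and Tapbp, the immunoproteasome subunits Psmb8, Psmb9 and Psmb10, and the class I transactivator Nlrc5. All 10 were among the 55450 genes of the count table, and all 10 were among the 17959 genes that passed the filter on low counts. The data were bulk RNA sequencing of skin from wild type C57BL/6 male mice aged 24 months, with 1 library per mouse. In 3 mice (476, 477 and 478) the shaved dorsal skin received 5 μM ABT-263, a senolytic that inhibits anti-apoptotic BCL-2 family proteins, for 5 days, and in 4 mice (480, 481, 482 and 483) it received the vehicle DMSO for the same time. No young or untreated skin was analysed here, so hair removal and the semi-occlusive dressing were common to all 7 mice. Each library was made from whole skin, in which more cells of a type and more RNA per cell cannot be told apart.

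MHC class I molecules display short peptides from inside the cell to CD8 T cells and are recognised by NK cell receptors. Peptides are cut by the proteasome, carried into the endoplasmic reticulum by the TAP transporter and loaded onto a heavy chain paired with beta-2 microglobulin, and interferon gamma induces most genes of this chain of events, including the 3 immunoproteasome subunits that replace the constitutive catalytic subunits. Most nucleated cells, among them keratinocytes and fibroblasts of the skin, carry class I at a low level that inflammation raises.

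Levels are given as TMM-normalized counts per 1000000 counts (CPM). The libraries held between 20344364 and 26824123 assigned read pairs in the DMSO mice and between 27325963 and 43562330 in the ABT-263 mice, so depth differed between the treatments without overlap, and thinning all libraries to the smallest size left each of the 10 genes on the same side of the threshold. The 10 genes were well measured, with between 448 and 98231 counts per library. The keratinocyte markers Krt5, Krt14, Krt1, Krt10 and Lor were abundant in all mice, as was a set of 4 skeletal muscle markers. The muscle markers summed to between 22232 and 47573 CPM in the DMSO mice. In ABT-263 mice 476, 477 and 478 they summed to 21909, 15352 and 23800 CPM. One library stood apart from the rest: ABT-263 mouse 476 had the highest level of the 7 mice for 21% of all genes tested and more than 2 times the level of every other mouse for 4.36% of them. For the other mice these shares were between 8.82% and 17%, and between 0.0557% and 0.991%. The differences of the 10 genes are therefore given with and without this mouse.

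Of the 10 genes, 7 lie on chromosome 17 in the mouse MHC (GRCm38 coordinates, GENCODE M21). Psmb9, Tap1, Psmb8 and Tap2 are neighbours within 34.3 kb, from base 34181987 to base 34216321. Tapbp (33915899-33929292, forward strand) and H2-K1 (33996017-34000347, reverse strand) lie on one side of them and H2-D1 (35262730-35267499, forward strand) on the other. B2m is on chromosome 2 (122147686-122153083, forward strand). Psmb10 (105935735-105938444, reverse strand) and Nlrc5 (94434356-94527272, forward strand) are on chromosome 8.

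Promoter windows, from 250 bases before to 50 bases after the start of the gene, were found for 8 of the 10 genes in RefSeq (GRCm38.p6), all but Tap2 and Nlrc5. The stretches below are shown because they hold the motifs through which NF-κB and interferon-induced factors are known to act on class I genes. In the H2-K1 and H2-D1 stretches the first capitals mark a κB consensus and the last capitals mark the reverse complement of the interferon response core GAAGTGAAA. In B2m the capitals mark an interferon-stimulated response element (ISRE, GAAA followed by any 2 bases and GAAA again) and a κB consensus, and in Psmb8 they mark a gamma-activated site (GAS, TTCNNNGAA). The H2-D1 stretch lies inside the GENCODE gene, in the 5′ UTR of 1 transcript that starts further upstream, and the Psmb8 stretch lies inside the GENCODE gene of Psmb8. The first printed base lies 111, 171, 139 and 107 bases before the RefSeq start site, in the order printed.
H2-K1, chr17:34000429-34000458, reverse strand: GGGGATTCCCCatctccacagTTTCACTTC
H2-D1, chr17:35262923-35262952, forward strand: GGGGATTCCCCatctcctcagTTTCACTTC
B2m, chr2:122147548-122147570, forward strand: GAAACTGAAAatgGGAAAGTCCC
Psmb8, chr17:34198088-34198116, forward strand: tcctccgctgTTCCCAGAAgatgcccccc

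The H2-K1 and H2-D1 stretches were identical at 29 of 30 bases and differed by A18T, counted from the 5′ end with the H2-K1 base first. Read on both strands, the interferon response core was in 0.505% of the 32851 RefSeq promoter windows and in H2-K1 and H2-D1 among the 8 genes, and this motif was chosen after the 2 sequences had been seen. The ISRE was in 3.44% of windows and in B2m alone of the 8, and the GAS was in 8.3% and in Psmb8 alone. The κB consensus was in 8.46% of windows and in H2-K1, H2-D1 and B2m. CCAAT, the motif bound by NF-Y, was in 37.4% of windows and in 6 of the 8 (B2m, H2-D1, H2-K1, Psmb9, Tap1 and Tapbp), where the Psmb9 and Tap1 windows overlap by 275 bases. A match is a description of the sequence, and a window without one was not searched further.

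None of the 10 genes passed an adjusted p of 0.05 in edgeR's quasi-likelihood test of ABT-263 against DMSO, beside 24.2% of all genes tested (12.4% higher and 11.7% lower). At an unadjusted p under 0.05, 4 of the 10 passed (H2-D1, B2m, Tap1 and Psmb8), beside 40.1% of all genes. All 10 log2 fold changes were positive, from 0.44 to 1.38 with a median of 0.85, where the median of all genes was 0.00 and 50.1% of genes were positive. The DESeq2 Wald test passed 1 of the 10, Psmb8 (adjusted p = 0.0219), beside 33.3% of all genes.

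Most of this difference rested on mouse 476. It had the highest level of the 7 mice for all 10 genes, between 2.26 and 5.23 times the DMSO mean, and more than 2 times every other mouse for 8 of them. Mouse 477 lay between 0.874 and 1.28 times the DMSO mean and was within the range of the DMSO mice for 8 genes and below it for Psmb9 and Nlrc5. Mouse 478 lay between 0.885 and 1.42 times the DMSO mean and was within that range for 5 genes and above it for 5. For none of the 10 was every ABT-263 mouse above every DMSO mouse, an order found for 18.7% of all genes. Within the ABT-263 group the coefficient of variation was between 44% and 92.8%, and among the DMSO mice it was between 6.12% and 26.5%. Among the 4 DMSO mice, mouse 480 was the highest for 9 genes and mouse 481 for Nlrc5, and the lowest was mouse 481 for 7 genes and mouse 483 for 3.

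**Figure D1:**
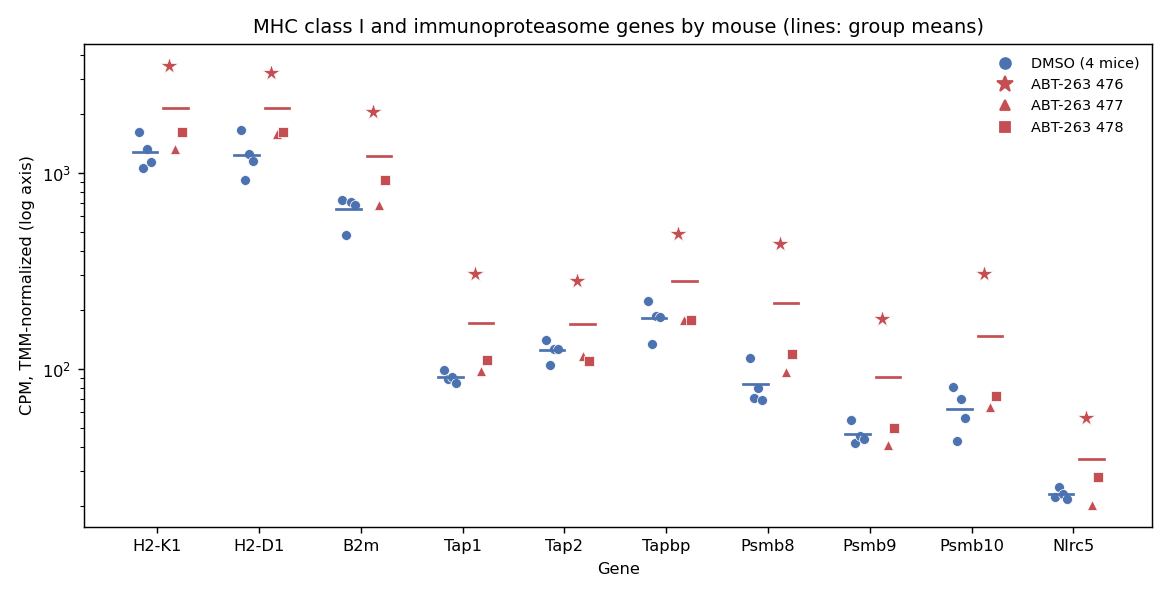
Level of each of the 10 genes in each mouse, in TMM-normalized CPM on a log axis, with DMSO mice as circles, the 3 ABT-263 mice by symbol and group means as lines. The star, mouse 476, is the highest point for all 10 genes, while mice 477 and 478 lie near the DMSO mice.

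The heavy and light chains form the class I molecule itself. H2-K1 (ENSMUSG00000061232) stood at 1609.6, 1057, 1320.0 and 1142 CPM in DMSO mice 480, 481, 482 and 483, and at 3512, 1322 and 1625 CPM in ABT-263 mice 476, 477 and 478. H2-D1 (ENSMUSG00000073411) stood at 1647, 917, 1248 and 1144 CPM in the DMSO mice and at 3222, 1582 and 1607 CPM in the ABT-263 mice, in the same order. For both heavy chains mouse 477 lay below DMSO mouse 480, so the groups overlapped. The group means were 1282 ± 244 CPM (SD, n = 4) and 2153 ± 1186 CPM (n = 3) for H2-K1, a log2 fold change of 0.75 (SE 0.35, edgeR adjusted p = 0.148). For H2-D1 they were 1239 ± 305 and 2137 ± 939.5 CPM, a log2 fold change of 0.79 (SE 0.32, edgeR adjusted p = 0.106). Without mouse 476 the log2 fold changes were 0.21 (SE 0.26) for H2-K1 and 0.37 (SE 0.27) for H2-D1, with edgeR adjusted p of 0.626 and 0.397.

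Of the 50-base windows of the H2-K1 transcript 8.11% also occur in other genes, and of those of H2-D1 14.3% do. H2-K1 shared windows with 24 other genes, most with H2-D1 (5.53% of its windows). H2-D1 shared windows with 103 other genes, most with the class I gene H2-Q1 (7.40%). The study counted only read pairs with a unique alignment. The levels of both heavy chains leave out pairs that could not be placed uniquely and are uncertain to that extent. Tapbp shared 2.00% of its windows. B2m, the light chain of class I molecules, shared no window with another gene.

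B2m (ENSMUSG00000060802) stood at 724, 485, 709.7 and 685 CPM in the DMSO mice and at 2056, 686 and 925 CPM in the ABT-263 mice. Mice 476 and 478 were above all DMSO mice, and mouse 477 was among them. The means were 651 ± 112 and 1222 ± 732 CPM, a log2 fold change of 0.91 (SE 0.37, edgeR adjusted p = 0.103). The value fell to 0.31 (SE 0.25, edgeR adjusted p = 0.423) without mouse 476 and was 1.231 (edgeR adjusted p = 0.0434) without mouse 477.

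Tap1 and Tap2 encode the paired chains of the peptide transporter, and Tapbp encodes tapasin, which holds the empty class I molecule at the transporter. Tap1 (ENSMUSG00000037321) stood at 98.6, 89.2, 90.7 and 84.5 CPM in the DMSO mice and at 304, 97.4 and 111 CPM in the ABT-263 mice. Mouse 477 was just under DMSO mouse 480, and the 2 other ABT-263 mice were above all controls. The means were 90.7 ± 5.84 and 171 ± 116 CPM, a log2 fold change of 0.91 (SE 0.37, edgeR adjusted p = 0.109), and 0.20 (SE 0.14, edgeR adjusted p = 0.36) without mouse 476.

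Tap2 (ENSMUSG00000024339) stood at 141, 105, 126 and 127 CPM in the DMSO mice and at 282, 116 and 110.4 CPM in the ABT-263 mice. Tapbp (ENSMUSG00000024308) stood at 222, 134, 186 and 183 CPM in the DMSO mice and at 489.5, 177 and 177 CPM in the ABT-263 mice. For both genes mice 477 and 478 lay within the range of the DMSO mice and below their mean. The log2 fold change was 0.44 (SE 0.33, edgeR adjusted p = 0.346) for Tap2 and 0.63 (SE 0.38, edgeR adjusted p = 0.248) for Tapbp. Without mouse 476 both values turned negative, at -0.13 (SE 0.16, edgeR adjusted p = 0.622) for Tap2 and -0.03 (SE 0.21, edgeR adjusted p = 0.946) for Tapbp.

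Psmb8, Psmb9 and Psmb10 encode the inducible catalytic subunits that take the places of the constitutive subunits Psmb5, Psmb6 and Psmb7 and favour peptides that fit class I. Psmb8 (ENSMUSG00000024338) stood at 114, 70.7, 79.5 and 69.5 CPM in the DMSO mice and at 436, 96.7 and 119 CPM in the ABT-263 mice. Mouse 478 was above all DMSO mice by a small margin and mouse 477 was below DMSO mouse 480. The means were 83.3 ± 20.7 and 217 ± 189.7 CPM, and the log2 fold change of 1.38 (SE 0.51, edgeR adjusted p = 0.0846) had the lowest adjusted p of the 10 genes. It was 0.38 (SE 0.23, edgeR adjusted p = 0.296) without mouse 476 and 1.77 (edgeR adjusted p = 0.0471) without mouse 477.

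Psmb9 (ENSMUSG00000096727) stood at 55.1, 42.1, 45.7 and 44 CPM in the DMSO mice and at 181, 40.9 and 49.8 CPM in the ABT-263 mice. Psmb10 (ENSMUSG00000031897) stood at 80.7, 42.9, 70.6 and 56.0 CPM in the DMSO mice and at 303, 63.7 and 72.4 CPM in the ABT-263 mice. Mouse 477 had the lowest Psmb9 of all 7 mice, and both mice 477 and 478 had Psmb10 within the range of the controls. The log2 fold change was 0.95 (SE 0.48, edgeR adjusted p = 0.182) for Psmb9 and 1.228 (SE 0.55, edgeR adjusted p = 0.135) for Psmb10. Without mouse 476 it was -0.04 (SE 0.16, edgeR adjusted p = 0.899) for Psmb9 and 0.13 (SE 0.24, edgeR adjusted p = 0.76) for Psmb10.

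Nlrc5 is the transactivator that is brought to class I promoters, as CIITA is to class II promoters. Nlrc5 (ENSMUSG00000074151) stood at 22.3, 24.9, 23 and 21.7 CPM in the DMSO mice and at 56.3, 20.3 and 28.0 CPM in the ABT-263 mice. The 3 ABT-263 mice thus lay above, below and above the range of the DMSO mice, which was the narrowest of the 10 genes relative to its mean. The means were 22.98 ± 1.41 and 34.9 ± 19 CPM, a log2 fold change of 0.60 (SE 0.31, edgeR adjusted p = 0.185). It was 0.08 (SE 0.17, edgeR adjusted p = 0.795) without mouse 476 and 0.91 (edgeR adjusted p = 0.0485) without mouse 477.

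For the 10 genes as a list, the log2 fold changes without mouse 476 were between -0.13 and 0.38 with a median of 0.17, and 0 of 10 passed in edgeR (0 also at an unadjusted p under 0.05), beside 12% of all genes in that fit. Without mouse 477, 3 of 10 passed and were higher (B2m, Psmb8 and Nlrc5), beside 12.3% of all genes that were higher in that fit.

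**Figure D2:**
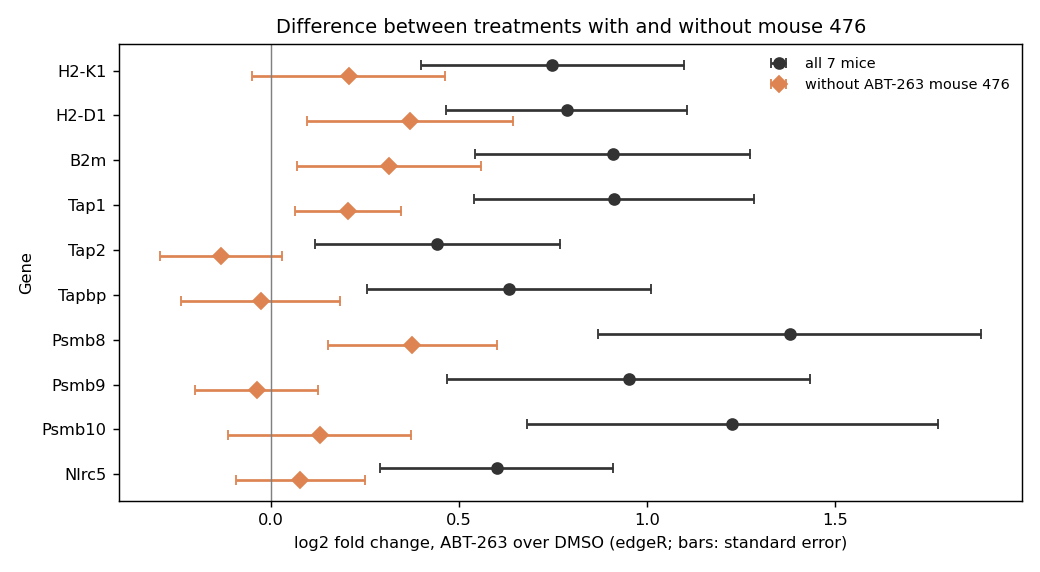
Log2 fold change of ABT-263 over DMSO for each of the 10 genes from edgeR, for all 7 mice (circles) and without mouse 476 (diamonds). Bars are 1 standard error, derived from the F statistic. All 10 circles lie above 0, from 0.44 to 1.38, and the diamonds lie between -0.13 and 0.38.

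To set genes beside each other, CPM was divided by the union exon length in kilobases (RPKM). This length can exceed that of a transcript, and unevenly between genes. It was 2938 bases for H2-K1 and 3381 for Psmb8, beside transcripts of 1874 and 1907 bases, but 860 for both in B2m. The order of genes close in level may thus differ with another length, which was not tried. The light chain B2m stood highest in the DMSO mice at 757 ± 130 RPKM (SD, n = 4). H2-D1 followed at 480.4 ± 118 and H2-K1 at 436 ± 83.1 RPKM. The ranges of B2m and H2-D1 overlapped, as did those of H2-D1 and H2-K1. There was then a gap without overlap to Tapbp at 50 ± 9.96 RPKM, followed by Psmb10 at 36.7 ± 9.72, Tap2 at 33.0 ± 3.94 and Psmb8 at 24.6 ± 6.12 RPKM, each overlapping the next. Tap1 (16.6 ± 1.07 RPKM), Psmb9 (12.8 ± 1.58) and Nlrc5 (2.71 ± 0.166) came last, each below the range of the gene before it. Chains of the class I molecule were thus more abundant as RNA than any gene of peptide supply in every DMSO mouse.

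In the ABT-263 mice B2m (1421 ± 851 RPKM, n = 3), H2-D1 (829 ± 364) and H2-K1 (733 ± 404) were again the first 3 and Tap1 (31.2 ± 21.1), Psmb9 (24.7 ± 21.4) and Nlrc5 (4.11 ± 2.24) the last 3. Between them Psmb10 (85.9 ± 79.7 RPKM) stood before Tapbp (77.6 ± 49.7), and Psmb8 (64.2 ± 56.1) before Tap2 (44.8 ± 25.8). These exchanges rested on a subset of mice, since Psmb10 was above Tapbp in 1 of 3 mice and Psmb8 was above Tap2 in 2 of 3. The ranges of neighbours in this order overlapped except for H2-K1 against Psmb10 and Psmb9 against Nlrc5.

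Ratios of partner genes within a mouse do not depend on how the libraries are scaled, and 6 of them were compared with an exact permutation test over the 35 splits of the mice, two-sided, in which no p can be below 0.0286. The ratio of Psmb8 to its constitutive counterpart Psmb5 (RPKM over RPKM) was 0.161, 0.118, 0.121 and 0.109 in DMSO mice 480 to 483 and 1.03, 0.169 and 0.273 in ABT-263 mice 476 to 478. All 3 ABT-263 mice were above all 4 DMSO mice, though mouse 477 only by a small margin. Psmb8 itself overlapped between the groups, at 96.7 CPM in mouse 477 and 114 CPM in DMSO mouse 480. Psmb5 was lower in every ABT-263 mouse than in every DMSO mouse, so the order of the ratio draws on both genes. The log2 ratio was higher by 1.52 (exact permutation p = 0.0286, adjusted p = 0.171 over the 6 ratios) and by 0.77 without mouse 476.

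The ratio of Psmb9 to Psmb6 was 0.0795, 0.0728, 0.0675 and 0.0689 in the DMSO mice and 0.388, 0.0739 and 0.105 in the ABT-263 mice. The ratio of Psmb10 to Psmb7 was 0.612, 0.310, 0.487 and 0.373 in the DMSO mice and 2.65, 0.512 and 0.567 in the ABT-263 mice. In both, mouse 476 stood far above the rest and mouse 477 lay within the range of the DMSO mice. The differences in log2 ratio were 1.00 (exact permutation p = 0.0571, adjusted p = 0.171) and 1.09 (exact permutation p = 0.143, adjusted p = 0.214). They were 0.29 and 0.32 without mouse 476.

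The heavy chains were set against the light chain in the same way. The ratio of H2-K1 to B2m was 0.651, 0.638, 0.544 and 0.488 in the DMSO mice and 0.50, 0.564 and 0.514 in the ABT-263 mice, a log2 difference of -0.13 (exact permutation p = 0.371, adjusted p = 0.446). The ratio of H2-D1 to B2m was 0.758, 0.631, 0.586 and 0.557 in the DMSO mice and 0.523, 0.769 and 0.580 in the ABT-263 mice, a log2 difference of -0.03 (exact permutation p = 0.857, adjusted p = 0.857). In mouse 476, whose chains were all at more than 2 times the DMSO mean, these ratios were at the lower end of or below the DMSO mice.

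Tap1 over Tap2 was 0.482, 0.587, 0.496 and 0.461 in the DMSO mice and 0.745, 0.579 and 0.693 in the ABT-263 mice. Mouse 477 was just under DMSO mouse 481, and the other ABT-263 mice were above all controls. The log2 ratio was higher by 0.41 (exact permutation p = 0.0857, adjusted p = 0.171) and by 0.33 without mouse 476. None of the 6 ratios passed after adjustment. Psmb8/Psmb5 had the lowest exact permutation p possible, 0.0286, and its adjusted p was still 0.171. The adjusted test could therefore not pass a ratio that differed alone, and its outcome does not show that the ratios were alike.

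**Figure D3:**
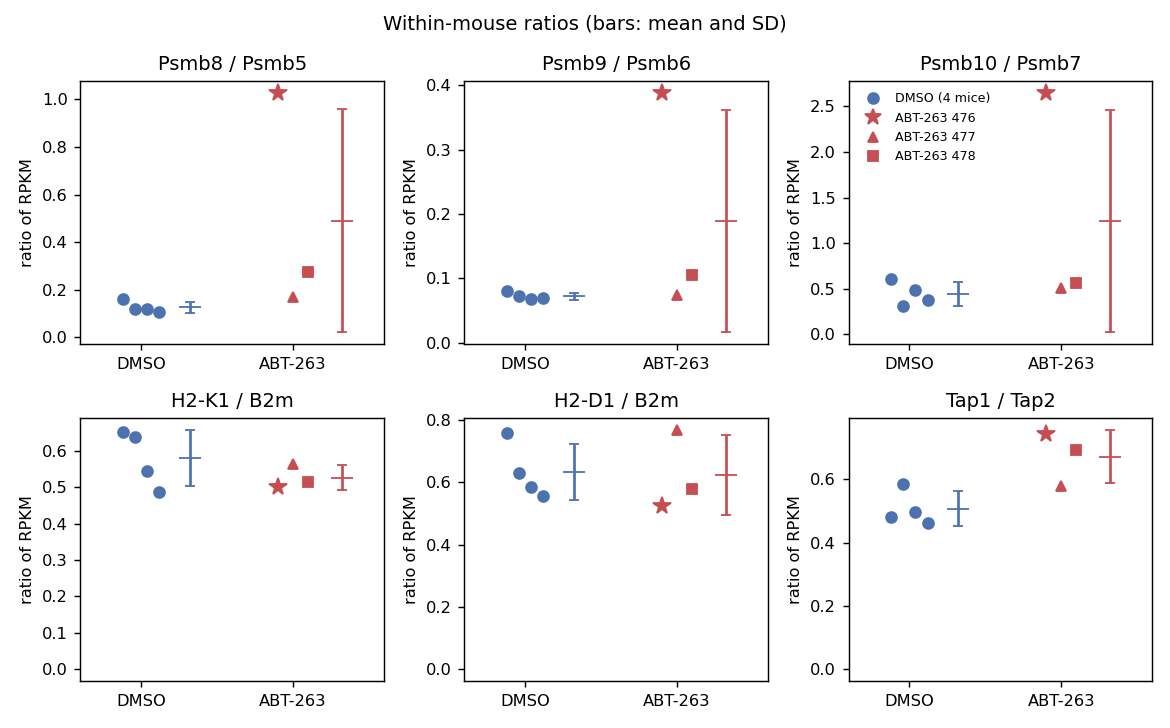
Within-mouse ratios of RPKM for 6 gene pairs in DMSO mice (circles) and ABT-263 mice (by symbol), with bars of the mean and SD for each group and vertical axes from 0. The ratio Psmb8/Psmb5 is the only one in which all 3 ABT-263 mice lie above all 4 DMSO mice, and mouse 476 is at 1.03 there.

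The wider pathway was described with 61 further genes in 5 lists, of which 56 were tested. These lists and those below were chosen with earlier results of these data known. Their counts beside the share of all genes are therefore descriptions and not independent support. In edgeR 10 were higher after ABT-263, 3 were lower and the median log2 fold change was 0.37. The calls changed with single mice: 5 were higher without mouse 476 or without mouse 478, 4 without mouse 481 or mouse 482, 3 without mouse 483 and 15 without mouse 477, and 5 were lower without mouse 480. Over all genes the share called was 24.2% with all mice, 12% without mouse 476, 21.6% without mouse 477 and 9.39% without mouse 478. It was 23.5%, 16.1%, 10.3% and 11.7% without DMSO mice 480, 481, 482 and 483. Of the 13 calls, 5 passed in each of the 7 fits with a mouse left out: Irf8, Nfkb1, Psmg2, Psmg3 and H2-M2.

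A list of 22 other class I heavy chains held mostly the Qa, Tla and M genes that present restricted peptides or none. Of these, 17 were tested, 5 were higher and 1 was lower, beside 12.4% of all genes higher and 11.7% lower. The median was 1.18 (0.51 without mouse 476). H2-M3, which presents formylated peptides, rose from between 6.02 and 8.06 CPM in the DMSO mice to 39.1, 10.99 and 18.9 CPM in mice 476, 477 and 478. All 3 ABT-263 mice were above all controls. Its log2 fold change was 1.76 (SE 0.38, edgeR adjusted p = 0.0181) and 1.14 without mouse 476 (adjusted p = 0.0302), and the call was lost without mouse 483 (adjusted p = 0.0539). Hfe, a class I-like protein of iron uptake, was at 42.4, 25.1 and 39.4 CPM against 11.7 to 20.6 CPM (log2 fold change 1.18, SE 0.24, edgeR adjusted p = 0.014). Its call was lost without mouse 478 (adjusted p = 0.0521).

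H2-Q4, H2-T24 and H2-M9 also passed (edgeR adjusted p of 0.0452, 0.0265 and 0.0395), and each lost its call without mouse 476, 478, 481, 482 or 483 (H2-Q4 also without mouse 480), with the highest adjusted p at 0.107, 0.069 and 0.151. Without mouse 476 the log2 fold change of H2-Q4 went from 1.232 to 0.59 and that of H2-T24 from 2.58 to 1.61, while that of H2-M9 went from 1.59 to 1.75. H2-M2 was the gene that fell, from between 2.17 and 4.64 CPM to 1.18, 1.29 and 1.16 CPM (log2 fold change -1.65, SE 0.32, edgeR adjusted p = 0.0127). All 3 ABT-263 mice were below all controls, and the value was -1.63 without mouse 476. H2-T23, which encodes the Qa-1 molecule seen by NK cell receptors, had the pattern of H2-K1 and H2-D1, at 89.1 to 177 CPM in the DMSO mice and 533, 161 and 169.5 CPM in the ABT-263 mice (log2 fold change 1.16, SE 0.45, edgeR adjusted p = 0.0939).

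Of 11 other genes of peptide trimming, folding and translocation, 3 were higher and the median was 0.38 (0.16 without mouse 476). Beside them, 12.4% of all genes were higher. Of the 11, 0 were higher without mouse 481, 482 or 483, 1 without mouse 476 or 478 and 2 without mouse 477 or 480. Erap1, the aminopeptidase that trims peptides in the endoplasmic reticulum, was at 16.4 to 20.1 CPM in the DMSO mice and at 57.7, 25.2 and 29.8 CPM in the ABT-263 mice, with no overlap. Its log2 fold change was 1.05 (SE 0.27, edgeR adjusted p = 0.029) and 0.60 without mouse 476 (adjusted p = 0.0434), and the call was lost without mouse 478, 481, 482 or 483 (highest adjusted p 0.0735). Sec61a1, a channel of the endoplasmic reticulum, and Ganab, a glucosidase of glycoprotein folding, had log2 fold changes of 0.64 and 0.39 (edgeR adjusted p of 0.0217 and 0.0468). Sec61a1 lost its call without mouse 476, 481, 482 or 483 (highest adjusted p 0.0682), with log2 fold changes between 0.58 and 0.76 over the 7 fits. Ganab lost it whichever of the 7 mice was left out (adjusted p between 0.0506 and 0.139), with log2 fold changes between 0.34 and 0.47. The chaperones Calr and Canx had log2 fold changes of 0.32 (edgeR adjusted p = 0.346) and 0.09 (edgeR adjusted p = 0.662).

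Of the other proteasome genes, 3 of 3 constitutive catalytic subunits and 6 of 9 genes of activation and assembly had negative log2 fold changes. Over all genes 50.1% were positive, so 6 of 9 is near the share of all genes. With total counts 5 of the 9 were negative. All 3 constitutive catalytic subunits were lower in every ABT-263 mouse than in every DMSO mouse, an order found for 18.4% of all genes, and 0 passed in edgeR (2 at an unadjusted p under 0.05). Psmb5 was at 113, 152 and 115 CPM in mice 476, 477 and 478 against 159 to 187 CPM (log2 fold change -0.45, SE 0.15, edgeR adjusted p = 0.0605). Psmb6 and Psmb7 had log2 fold changes of -0.38 (edgeR adjusted p = 0.0837) and -0.21 (edgeR adjusted p = 0.255). In the DESeq2 Wald test 2 of the 3 passed as lower, beside 16.1% of all genes.

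Of 9 genes of proteasome activation and assembly, 2 passed in edgeR and both were lower, with a median of -0.20 over the list. Over all genes 11.7% were lower. The 2 genes that passed are chaperones of proteasome assembly. Psmg2 fell from between 40.6 and 48.4 CPM to 21.5, 28.5 and 20.8 CPM (log2 fold change -0.90, SE 0.15, edgeR adjusted p = 0.00845). Psmg3 fell from between 32.2 and 39.0 CPM to 20.2, 23.4 and 16 CPM (log2 fold change -0.83, SE 0.16, edgeR adjusted p = 0.0123). Without mouse 476 the values were -0.83 and -0.84. The interferon-inducible activator subunits Psme1 and Psme2 had log2 fold changes of 0.37 (edgeR adjusted p = 0.369) and -0.32 (edgeR adjusted p = 0.352).

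Of 16 factors known to act on class I promoters, 2 passed in edgeR and both were higher. Over all genes 12.4% were higher, so 2 of 16 is near the share of all genes. The median over the list was 0.34 (0.19 without mouse 476). Irf8, an interferon regulatory factor of myeloid and B cells, rose from between 8.38 and 12.2 CPM to 73.6, 23.7 and 25.7 CPM (log2 fold change 2.10, SE 0.40, edgeR adjusted p = 0.0133). Nfkb1, which encodes the p50 subunit that binds κB sites, rose from between 38.4 and 44.7 CPM to 93.3, 61.1 and 71.5 CPM (log2 fold change 0.82, SE 0.16, edgeR adjusted p = 0.0124). Both kept their calls without mouse 476, at 1.38 (edgeR adjusted p = 0.0152) and 0.64 (edgeR adjusted p = 0.0268).

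Irf1, an interferon regulatory factor induced by interferon gamma, did not pass in edgeR. It was at 21.95 to 38.9 CPM in the DMSO mice and at 221, 54.9 and 50.4 CPM in the ABT-263 mice (log2 fold change 1.71, SE 0.53, edgeR adjusted p = 0.0505). Every ABT-263 mouse was above every DMSO mouse. Without mouse 476 the value was 0.67 (edgeR adjusted p = 0.0867).

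Interferon genes themselves were near the limit of detection. Ifng was at 1.18 CPM in mouse 476, at 0.0756 and 0.0644 CPM in mice 477 and 478 and between 0 and 0.164 CPM in the DMSO mice, and Ifnb1, Ifnl2 and Ifnl3 had no count in any library. None of the 5 interferon genes listed passed the filter on low counts. Of the 7 receptor and kinase genes tested, 6 were higher in edgeR (Ifngr1, Ifnar1, Ifnar2, Jak1, Jak2 and Tyk2) with a median of 0.98. Beside them, 12.4% of all genes were higher. Without mouse 476, 3 of the 6 were higher. Counts without other mice were 1 without mouse 482 or 483, 2 without mouse 478, 3 without mouse 481 and 4 without mouse 480. The share of all genes called in either direction fell too, from 24.2% to between 9.39% and 23.5% with a mouse left out.

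Sums over each list placed the 10 genes beside the rest of the tissue. Relative to the DMSO mean, the 10 genes together stood at 2.86, 1.11 and 1.27 in mice 476, 477 and 478, and the immunoproteasome genes alone at 4.78, 1.05 and 1.25. A list of 19 interferon-stimulated genes stood at 12.9, 1.62 and 2.64, with 12 of 19 higher in edgeR beside 12.4% of all genes. Of the 19, 5 were higher without mouse 476, 7 without mouse 478, 2 without mouse 481 and 1 without mouse 482 or mouse 483. A list of 9 class II presentation genes stood at 5.73, 1.32 and 1.65. The constitutive catalytic subunits stood at 0.738, 0.869 and 0.78, the opposite direction.

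Markers of leukocytes were also highest in mouse 476. For the marker lists here and below, 12.4% of all genes were higher in edgeR with all mice. With a mouse left out, between 9.39% and 23.5% of all genes were called in either direction. Of 4 pan-leukocyte markers (Ptprc, Coro1a, Laptm5 and Lcp1), 2 were higher in edgeR, and their sum was 178 to 381 CPM in the DMSO mice and 1037, 348 and 334 CPM in mice 476, 477 and 478. Of the 4, 1 was higher without mouse 476 or 480 and 0 without mouse 481, 482 or 483. Of 8 macrophage markers 7 were higher (3 without mouse 476 or 478, 4 without mouse 481 or 482 and 1 without mouse 483), with sums of 310.1 to 895 CPM and 3572, 1049 and 1499 CPM. Of 6 neutrophil markers tested 3 were higher (1 without mouse 476, 482 or 483), with sums of 100.4 to 1822 CPM and 8377, 5098 and 5564 CPM. In mice 477 and 478 the macrophage and neutrophil sums were above every control, while the pan-leukocyte sums were within the range of the controls. Such a sum is carried by its most abundant genes. The sum of the 10 genes was 4203 CPM in mouse 477 and 4825 CPM in mouse 478 against 2968 to 4715 CPM in the controls, within their range in mouse 477 and above it in mouse 478. The sum of the heavy and light chains was likewise above the controls in mouse 478 (4158 CPM against 2459 to 3981 CPM), and the sum of the immunoproteasome genes was within their range in both (201 and 241 CPM against 156 to 249 CPM).

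Of 7 T cell markers 0 passed in edgeR, also 0 at an unadjusted p under 0.05 and 0 in the Wald test, and their sum was 59.1, 36.2 and 19.8 CPM in mice 476, 477 and 478 against 23.2 to 47.7 CPM in the DMSO mice. The sums of the ABT-263 mice thus lay above, within and below the range of the controls. The 3 NK cell markers (Ncr1, Klrb1c and Eomes) were below the filter, with a sum of 2.75 CPM in mouse 476 and at most 0.387 CPM elsewhere. Of 5 B and plasma cell markers 0 of 3 tested passed in edgeR or in the Wald test (0 at an unadjusted p under 0.05 in edgeR), and Jchain alone was at 133 CPM in mouse 476 and at most 7.28 CPM elsewhere. Of 4 dendritic and Langerhans cell markers tested 0 passed in edgeR, 1 had an unadjusted p under 0.05 and 1 passed in the Wald test.

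The 5 keratinocyte markers summed to the lowest value of the 7 mice in mouse 476, at 19001 CPM against 25556 to 66747 CPM in the DMSO mice and 58186 and 30659 CPM in mice 477 and 478. Of these 5, 0 passed in edgeR, at an unadjusted p under 0.05 or in the Wald test. Fibroblast markers (3 of 5 higher) and endothelial markers (4 of 4 higher) had sums above every control in all 3 ABT-263 mice. Of the fibroblast markers, 2 were higher without mouse 477, 478, 481, 482 or 483. Of the endothelial markers, 3 were higher without mouse 476, 478, 482 or 483. The part of these cell types in the levels of the 10 genes was not tested.

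**Figure D4:**
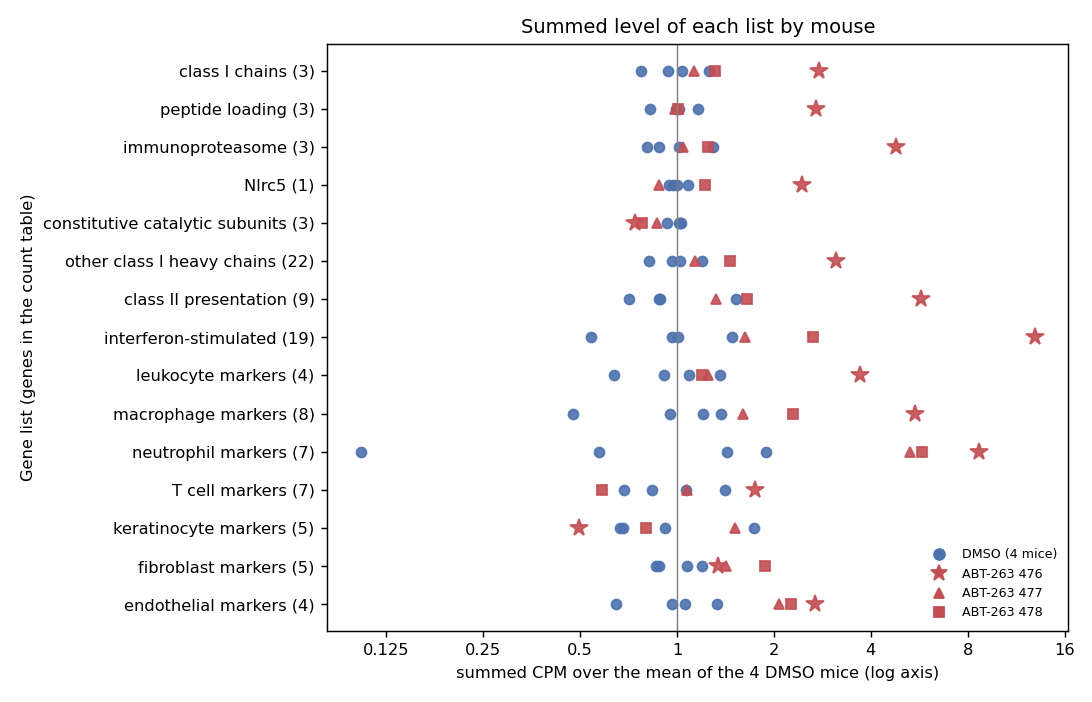
Summed CPM of each gene list in each mouse, divided by the mean of the 4 DMSO mice, on a log axis, with the number of genes of each list in brackets. The star, mouse 476, is at 4.78 for the immunoproteasome genes, 12.9 for the interferon-stimulated genes and 0.495 for the keratinocyte markers.

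Across the 7 mice each of the 10 genes was compared with the mean of their z scores. That mean includes the gene itself, which raises r, and mouse 476 was the highest for all 10. An r without mouse 476 is not given for the 10 genes. The correlation of each with the mean of their z scores was between 0.931 (Nlrc5) and 0.994 (Psmb10), as Pearson's r of log2 CPM, and 193 genes outside the 10 had an r above 0.95. These values describe 7 libraries of which 1 stood far from the rest. The 5 genes nearest in pattern were Batf3 (r = 0.996), Clec12a (r = 0.995), Tcirg1 (r = 0.993), Pitpnm1 (r = 0.992) and Slamf7 (r = 0.992). Without mouse 476 their r over 6 mice was between 0.911 and 0.971. They were chosen for a high r over all 7 mice, so the r over 6 of the same mice is not independent of that choice. Batf3, a transcription factor of cross-presenting dendritic cells, was at 3.20 to 4.13 CPM in the DMSO mice and at 10.05, 3.68 and 4.04 CPM in mice 476, 477 and 478. Clec12a, a receptor of myeloid cells, was at 5.39 to 10.7 CPM and at 57.2, 7.21 and 12.03 CPM. None of the 5 passed in edgeR, with adjusted p between 0.0836 and 0.228.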

How the data were processed

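Skin RNA of 7 mice was sequenced, and the authors deposited a table of raw counts per Ensembl gene and a table of variance-stabilized values on a log2 scale made from it. Per the study's methods, reads were aligned to mm10 with STAR 2.7.9a, counts were made with featureCounts (Subread 1.6.2, Ensembl annotation build 109) from uniquely aligned proper pairs on the same strand without mitochondrial genes, and DESeq2 1.23.10 made the deposited log2 values. Here the counts were tested with edgeR 4.0.16 in R 4.3.3 (TMM, the filterByExpr filter, robust quasi-likelihood test, two-sided) without covariates, and p-values were adjusted by the Benjamini-Hochberg method across all 17959 tested genes, with a threshold of 0.05. The SE printed with an edgeR log2 fold change is its absolute value divided by the square root of the F statistic of the test. The script was tested on simulated data. CPM used TMM library sizes, and RPKM the union exon length in GENCODE M21, an older annotation on the same build. Symbols were matched for 55190 of 55450 identifiers. The study itself tested differential expression with the Wald test of DESeq2. The alternatives here were a DESeq2 1.42.0 Wald test, other normalizations and filters, and removal of length and GC trends. Thinned counts, limma 3.58.1 on the deposited log2 values, and leaving out each mouse were the others. Named were the 10 genes, genes of the fixed lists and the 5 genes nearest in pattern. The members and lists were chosen with earlier results of these data known. Of the listed symbols only Lilrb3 was not matched.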

Additional observations from a re-analysis of the deposited data

Results flagged for a closer look

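B2m in DMSO mouse 481 lay apart from the other control mice, at 485 CPM against 685 to 724 CPM in the other 3. Its gap to the nearest mouse was 0.836 of the range of the 4 mice, above the 95% critical value of Dixon's test. It was 1 of 33 measures examined in the DMSO mice, where chance alone would give 1.65. The edgeR log2 fold change of B2m was between 0.31 and 1.231 over the 7 fits that left out a mouse. The criterion was applied to the 4 DMSO mice only, and the 3 ABT-263 mice were not examined by it.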

How the results depend on the processing

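Of 150 values of the 10 genes under the alternatives, 143 kept their direction and their side of the threshold. Of the 80 that did not leave out a mouse, 79 did so, and the exception was Psmb8, which passed in the DESeq2 Wald test (log2 fold change 1.40, adjusted p = 0.0219), so that 1 of the 10 passed there as higher. With a mouse left out, between 0 and 3 of the 10 passed as higher. Without mouse 476 the log2 fold changes of Tap2 (-0.13), Tapbp (-0.027) and Psmb9 (-0.038) turned negative, and over all 7 such fits they reached 0.69, 0.91 and 1.34. The H2-D1/B2m log2 ratio, -0.03 in all mice, lay between -0.19 and 0.09 with a mouse left out (0.06 without mouse 480, 0.087 without mouse 476 and 0.01 without mouse 478). With 15 or 20 splits left, the exact test of a ratio could then not reach 0.05. In the wider pathway the Wald test passed 19 as higher and 6 as lower, against 10 and 3 in edgeR, and removal of length and GC trends passed 5 as lower. With a mouse left out, between 3 and 15 were higher and between 3 and 5 lower. Over all genes, the split of higher against lower calls was 2234 to 2108 with TMM, 2647 to 1532 with total counts and 1958 to 2501 after removal of length and GC trends, where the median of all genes moved to 0.09 and -0.07. All 10 log2 fold changes stayed positive under both. The cause of these changes was not tested. No paired analysis was possible because the mouse numbers are not shared between treatments. With 3 and 4 mice, single mice of either treatment moved the calls.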

Other observations

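Of 8 tested genes of the cells that read class I molecules, receptors and killing genes, 7 had their highest level in mouse 476, all but Prf1. Of the 8, 4 passed in edgeR as higher (Klrd1, Pirb, Gzma and Gzmb), with adjusted p between 0.0275 and 0.0445, beside 12.4% of all genes. None kept the call without mouse 476, 481, 482 or 483 (3 or 4 of the list then had an unadjusted p under 0.05), and 2 did without mouse 478 or 480. Gzmb, a protease of cytotoxic granules, was at 7.90 CPM in mouse 476, at 0.807 and 0.795 CPM in mice 477 and 478 and at most 0.327 CPM in the DMSO mice. Pirb, an inhibitory receptor for class I on myeloid cells, was at 200, 43.9 and 56.3 CPM against 9.44 to 35.6 CPM. Cd8a, a coreceptor for class I on T cells, was at 4.72 CPM in mouse 476, 0.529 and 0.193 CPM in the other ABT-263 mice and at most 0.616 CPM in the DMSO mice, and did not pass (log2 fold change 2.45, SE 1.06, edgeR adjusted p = 0.126).

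Class II presentation genes also peaked in mouse 476. All 9 genes listed were highest there, and 4 passed in edgeR as higher (Ctss, Ciita, H2-Eb1 and H2-Oa), beside 12.4% of all genes. The median log2 fold change was 1.44, or 0.57 without mouse 476. In that fit 0 passed in edgeR, beside 12% of all genes in either direction, and 3 had an unadjusted p under 0.05. The count was also 0 without mouse 481, 482 or 483, 1 without mouse 478, 2 without mouse 480 and 8 without mouse 477. The DESeq2 Wald test passed all 9, beside 33.3% of all genes in either direction. Ciita, the class II counterpart of Nlrc5, was at 36.2, 8.49 and 12.8 CPM in mice 476, 477 and 478 against 4.82 to 7.86 CPM in the DMSO mice, with no overlap.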
